A study of Mus musculus with 2 samples.

Results

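The 8 genes described here make prostaglandins or receive them: the cyclooxygenases Ptgs1 and Ptgs2, the terminal synthases Ptgds, Hpgds, Ptges and Ptgis, and the prostaglandin E2 receptors Ptger3 and Ptger4. They were found by symbol among the 55357 genes counted in 2 single-cell libraries of mouse heart. They were chosen by their role in the pathway and with their UMI levels by cell type and library in these data already known, so the levels and the ratios between the libraries are a description and carry no test. The Sham library came from hearts of C57BL/6 mice labelled Sham, a word for the operation without narrowing of the aorta. The TAC library came from male C57BL/6 mice whose aortic arch was narrowed with a suture (transverse aortic constriction, TAC) at 8 weeks of age, which makes the left ventricle pump against a higher pressure for 6 weeks. The labels give no age or sex for the Sham mice. Each library combined the cells of 3 to 5 hearts, whose cells cannot be told apart. The design text of the deposit calls the control mice uninjured, so whether they were operated on is not settled here. Both libraries were made with the 10X Chromium platform, in which every captured transcript carries the barcode of its droplet and a random tag of its own, so that distinct tags (UMIs) can be counted.

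Prostaglandins are short-lived lipid signals made from arachidonic acid, which phospholipases free from cell membranes. A cyclooxygenase turns arachidonic acid into prostaglandin H2, and a terminal synthase turns that into prostaglandin D2, prostaglandin E2, prostacyclin or thromboxane. Each product acts on nearby cells through its own G protein-coupled receptors. In the heart and vessels prostacyclin is known as a vasodilator, thromboxane as a vasoconstrictor made in platelets and macrophages, and prostaglandin D synthase of the lipocalin type also as a carrier of small lipophilic molecules.

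The Sham and TAC matrices held 28146691 and 29108986 UMIs in 9935 and 9932 barcodes, and 32 barcode sequences occurred in both. After removal of doublets, 9472 Sham and 9453 TAC cells were clustered in each library by itself and named from marker genes. The 5 large types held 2511 and 2393 cardiomyocytes, 2290 and 2128 fibroblasts, 1904 and 2255 endothelial cells, 1413 and 1346 macrophages, and 1065 and 1044 pericytes in Sham and TAC. The names are rebuilt from markers, so each type is like the cells it is named for. The smaller types had 15 to 110 cells per library, and 48 Sham cells led by cell-cycle and dendritic cell genes stayed unnamed. Levels are UMIs of a gene per 1000000 UMIs of the cell type, with exact Poisson 95% intervals in parentheses. Ratios of TAC to Sham are given with 95% intervals from the exact binomial split of their UMIs. Condition and library cannot be told apart, since each condition was sampled by 1 library without a replicate, and every interval covers counting error only. UMIs in introns may be included, so levels were compared between cell types and libraries and not between genes.

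Ptgds, the lipocalin-type prostaglandin D synthase, was the member with the largest difference over all cells between the libraries. It was a cardiomyocyte gene in both: cardiomyocytes held 91.1% of its UMIs in Sham and 90.3% in TAC. Sham cardiomyocytes had 6593 Ptgds UMIs, a level of 489 (477 to 501). TAC cardiomyocytes had 966, a level of 73.7 (69.1 to 78.5). The TAC level was 0.151 times the Sham level (0.141 to 0.161), a 6.63-fold difference (6.2 to 7.1). Of the 13296 genes with at least 50 UMIs over both libraries in cardiomyocytes, 2 had a lower ratio. These were Lonrf3, with 88 Sham and 12 TAC UMIs, and Kcnc1, with 49 and 3, both named after their values were seen.

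Ptgds (ENSMUSG00000015090) occupies chr2:25466709-25470046 on the minus strand (GRCm38, GENCODE M21), and no other annotated gene overlaps it. The stretch before its RefSeq start site is shown because Ptgds differed most between the libraries over all cells. It runs from 250 to 94 bases before the RefSeq start site, 5′ to 3′ on the minus strand, and holds no exon base of any Ptgds transcript in GENCODE M21. In that annotation it lies inside the gene, in the first intron of the transcript that starts farthest upstream. It covers chr2:25469843-25469999 in GRCm38.p6, 157 bases, as given by RefSeq. Capitals mark the E-box CAGCTG, a palindrome that basic helix-loop-helix factors are known to bind.
Ptgds, before the RefSeq start: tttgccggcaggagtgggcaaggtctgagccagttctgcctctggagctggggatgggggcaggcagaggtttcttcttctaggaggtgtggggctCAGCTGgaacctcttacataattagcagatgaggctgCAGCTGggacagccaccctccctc
CAGCTG occurred 2 times in it. At least 1 copy was in 7.86% of the 32851 RefSeq windows of the same length and place, and 2 or more copies in 0.527%. The E-box CACGTG, the TATA box TATAAA and the glucocorticoid half-site AGAACA, searched on both strands, did not occur in the Ptgds window and were in 3.06%, 7.55% and 10.7% of all windows. The motifs were picked with the sequence in view, and a match is a description of letters only.

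The difference in Ptgds held in every cardiomyocyte cluster. The Sham cardiomyocytes formed 3 clusters with Ptgds levels of 453, 826 and 422, and the TAC cardiomyocytes formed 2 clusters, at 79.9 and 42.5. The lowest Sham cluster was thus above the highest TAC cluster. The Sham cluster at 826, of 637 cells, had Ptgds itself among its leading genes, beside Slc38a3, an amino acid transporter, and Coro6. Its level was 1.96 times that of the cluster at 422 (1.85 to 2.07), but its cells were also smaller in UMIs, with a median of 2819 against 5266. The mean number of Ptgds UMIs per cell was close in both, 2.77 and 2.56.

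Ptgds was spread unevenly over single cardiomyocytes. In Sham, 43.7% of cardiomyocytes had no Ptgds UMI, the median cell had 1, and the highest had 34. The 251 cells with the most Ptgds, 10% of all, held 53.1% of its UMIs and 13.0% of all cardiomyocyte UMIs. In TAC, 79.4% of cardiomyocytes had no Ptgds UMI and the highest cell had 16. Cells with 10 or more Ptgds UMIs made up 7.69% of Sham and 0.293% of TAC cardiomyocytes. Whether the cells with many Ptgds UMIs came from 1 of the pooled hearts could not be read from these files.

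**Figure D1:**
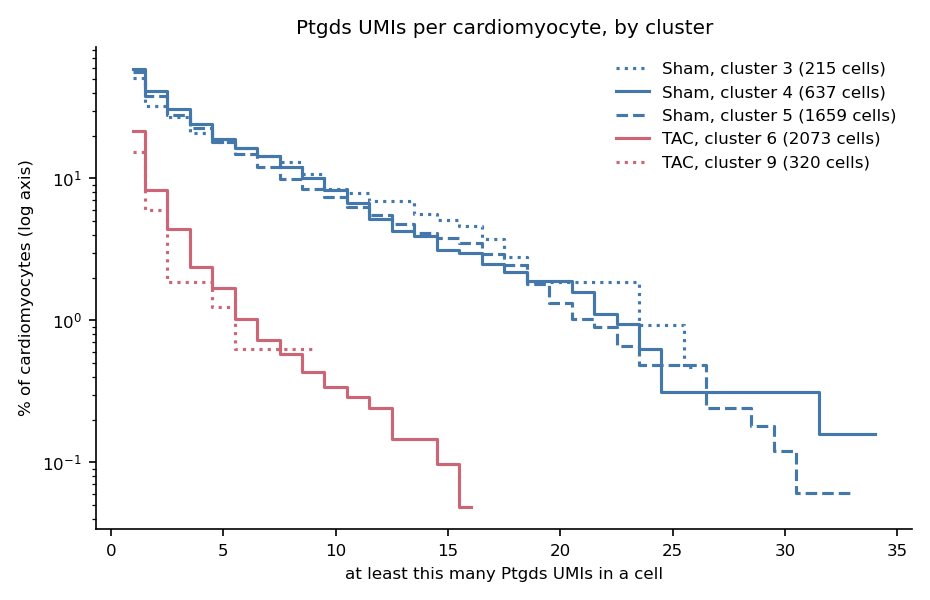
Share of cardiomyocytes (% of the cluster's cells, log axis) with at least the number of Ptgds UMIs on the x axis, 1 line per cluster (blue, Sham; red, TAC). The 3 Sham lines run close together and end at 26 to 34 UMIs, and both TAC lines drop earlier and end at 16 and 9 UMIs.

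At an equal depth of 1000 UMIs per cell, drawn once at random, 28.9% of Sham cardiomyocytes (27.1 to 30.7) and 6.38% of TAC cardiomyocytes (5.43 to 7.44) had a Ptgds UMI. This left out 35 Sham and 10 TAC cardiomyocytes with fewer UMIs. Pericytes, a type taken to lack Ptgds, had a share of 5.71% in Sham and 0.209% in TAC. Without thinning the shares were 56.3% and 20.6% in cardiomyocytes, at median depths of 4505 and 4917 UMIs, and 8.92% and 0.766% in pericytes, at 1579 and 1701.5. The share in cardiomyocytes was above that in pericytes in both libraries.

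Every other large type had Ptgds at a lower level, and in each of them the level was lower in TAC too. Endothelial cells were at 70.2 (60.0 to 81.5) in Sham and 12.3 (8.82 to 16.8) in TAC. Pericytes were at 54.5 (44.3 to 66.2) and 4.68 (2.14 to 8.88). Macrophages were at 50.6 (41.7 to 60.9) and 6.13 (3.51 to 9.96). In the Sham order, endothelial cells, pericytes and macrophages followed cardiomyocytes with overlapping intervals between neighbours. Fibroblasts came last, at 42.7 (37.4 to 48.6) in Sham and 6.17 (4.22 to 8.70) in TAC, and their interval overlapped that of macrophages.

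In these 4 types the intervals of the TAC to Sham ratio overlapped that of cardiomyocytes. The ratio was 0.144 (0.0964 to 0.209) in fibroblasts, 0.176 (0.121 to 0.25) in endothelial cells, 0.121 (0.0670 to 0.206) in macrophages and 0.0859 (0.0382 to 0.170) in pericytes. Among the genes with at least 50 UMIs, 1 gene had a lower ratio than Ptgds in fibroblasts and 1 in macrophages, while endothelial cells had 2 such genes and pericytes 0. The gene 5730419F03Rik was lower in fibroblasts (0.0436), macrophages (0.0801) and endothelial cells (0.0887), and Cyp1a1, an enzyme of foreign compound metabolism, was lower in endothelial cells (0.0735). Both were named after their values were seen. In Sham T cells Ptgds was at 221 (110 to 395), but 10 of its 11 UMIs were in 1 cell. A list of 12 abundant cardiomyocyte genes made up 1.02% of the UMIs of these T cells, against 0.217% in TAC T cells.

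Droplets can also hold free RNA from broken cardiomyocytes, so Ptgds was set beside 12 abundant cardiomyocyte genes (Myh6, Tnnt2, Actc1, Tnni3, Pln, Myl2, Myl3, Tnnc1, Mb, Ckm, Fabp3 and Tpm1). The 12 genes together were at 30464 per 1000000 UMIs in Sham cardiomyocytes and at 1639 to 3135 in the other 4 large types. RNA from 1 source keeps its genes in 1 ratio in every type of a library. Ptgds had 16.1 UMIs per 1000 UMIs of the list in Sham cardiomyocytes (15.7 to 16.4), 22.4 in endothelial cells (19.1 to 26.1), 24.1 in pericytes (19.6 to 29.4), 21.3 in macrophages (17.5 to 25.7) and 26.1 in fibroblasts (22.8 to 29.7). The 4 values outside cardiomyocytes had overlapping intervals and were 1.33 to 1.62 times the cardiomyocyte value. The list's own genes did not keep 1 ratio either: in Sham they ran from 0.627 times the cardiomyocyte value for Myh6, in pericytes, to 6.81 for Mb, in endothelial cells. Ptgds lay inside the list's range in every large type of both libraries, with 6 to 10 of the 12 genes above it.

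The same ratio was low in TAC in every large type. It was 2.79 in cardiomyocytes (2.62 to 2.98), 4.52 in fibroblasts (3.09 to 6.39), 5.18 in endothelial cells (3.69 to 7.05), 3.88 in macrophages (2.22 to 6.31) and 2.58 in pericytes (1.18 to 4.90). The list itself was 0.866 times as high in TAC as in Sham in cardiomyocytes and 0.666 to 0.831 times as high in the other 4 types, a smaller difference than that of Ptgds. Of the 12 genes, 7 were higher in TAC in cardiomyocytes, 9 in fibroblasts, 6 in pericytes, 4 in endothelial cells and 2 in macrophages. Whether the Ptgds UMIs outside cardiomyocytes came from free RNA was not tested.

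**Figure D2:**
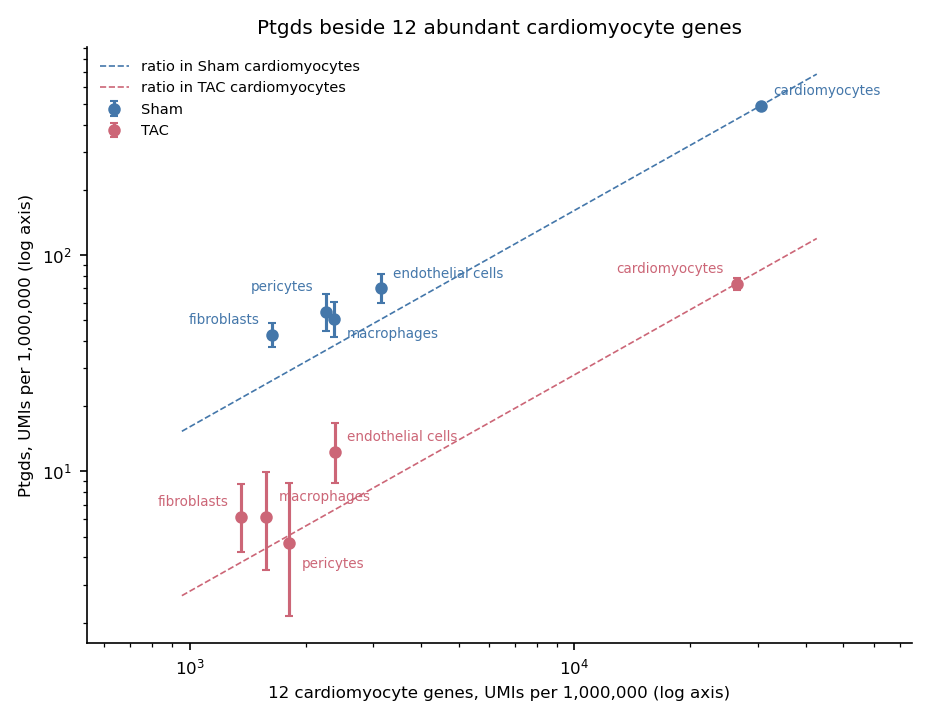
Ptgds level against the summed level of 12 abundant cardiomyocyte genes in the 5 large cell types (both in UMIs per 1000000 UMIs, log axes; bars are exact Poisson 95% intervals for Ptgds; blue, Sham; red, TAC). Dashed lines carry the ratio measured in cardiomyocytes, 16.1 UMIs per 1000 in Sham and 2.79 in TAC, and all red points lie below all blue points of the same type.

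Ptgs1, the constitutive cyclooxygenase, was an endothelial gene, with 70.3% of its UMIs in endothelial cells in Sham and 66.3% in TAC. Among these it was highest in the endocardium, the lining of the heart chambers. Endocardial cells were at 421 (354 to 496) in Sham, from 141 UMIs in 193 cells, and at 290 (251 to 334) in TAC, from 193 UMIs in 302 cells. Capillary cells were at 78.6 (66.9 to 91.7) and 44.7 (35.6 to 55.3). Arterial cells had 0 Ptgs1 UMIs in 35 Sham cells, which allows a level of up to 58.5 (3 counts), and 4 UMIs in 129 TAC cells.

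Over all endothelial cells Ptgs1 was at 124 (111 to 139) in Sham and 107 (96.1 to 119) in TAC, a ratio of 0.862 with an interval that held 1 (0.737 to 1.01). Within the endocardial cells the ratio was 0.689 (0.552 to 0.862) and within the cells named capillary 0.569 (0.431 to 0.745), both below that of the whole. Endocardial cells made up 1.29% of all UMIs in Sham and 2.50% in TAC. A TAC cluster of 311 endothelial cells, led by Lhx6 and Rasa4, had no subtype name, and its Ptgs1 level was 129 (99.7 to 164). No Sham cluster was led by these genes. The libraries were clustered apart, so such cells may lie within the Sham capillary cluster, which was not tested. With these TAC cells counted beside the capillary cells, the ratio was 0.798 (0.635 to 1.0) in place of 0.569, so the capillary ratio depends on where they are placed.

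Outside the endothelium, Ptgs1 was found in macrophages, in pericytes and in the few epicardial cells. Macrophages were at 38.4 (30.7 to 47.5) in Sham and 48.7 (40.6 to 57.9) in TAC, a ratio of 1.27 (0.956 to 1.69). Pericytes were at 10.9 (6.65 to 16.8) in Sham and 7.27 (3.98 to 12.2) in TAC. Epicardial or mesothelial cells had 6 UMIs in 19 Sham cells, a level of 153 (56.2 to 333), and 18 UMIs in 26 TAC cells, a level of 291 (172 to 460). Cardiomyocytes were low, at 0.519 and 0.916. At 1000 UMIs per cell, 10.0% of Sham and 9.10% of TAC endothelial cells had a Ptgs1 UMI, against 0 of 2476 Sham cardiomyocytes, which allows up to 0.121%, and 0.0420% of TAC cardiomyocytes. Without thinning the shares were 10.9% and 11.1% of endothelial cells, at medians of 1105 and 1265 UMIs, and 0.239% and 0.501% of cardiomyocytes.

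Ptgs2, the inducible cyclooxygenase, was sparse, with 58 UMIs in the Sham cells and 96 in the TAC cells. Only endocardial cells and fibroblasts had more than 5 of these UMIs in either library. All endothelial Ptgs2 UMIs were in endocardial cells, 21 in Sham and 46 in TAC, at levels of 62.7 (38.8 to 95.8) and 69.1 (50.6 to 92.2). The other endothelial cells had 0 in both libraries, which allows a level of up to 1.44 in Sham and 1.16 in TAC (3 counts). The endocardial ratio was 1.10 (0.645 to 1.95), while the ratio over all endothelial cells was 1.64 (0.958 to 2.89), beside the larger share of endocardial cells in TAC. With no doublets removed the ratio over all endothelial cells was 1.30, and with cells typed by their own markers it was 3.00.

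In fibroblasts Ptgs2 was at 5.89 (4.03 to 8.32) in Sham, from 32 UMIs, and 9.25 (6.82 to 12.3) in TAC, from 48. The ratio was 1.57, and its interval held 1 (0.983 to 2.54). In each library the fibroblast cluster with the adventitial markers Pi16, Cd55 and Sema3c had the higher level: 8.79 (5.74 to 12.9) against 2.43 (0.892 to 5.29) in Sham, and 14.1 (9.50 to 20.1) against 5.88 (3.49 to 9.30) in TAC. The Sham cluster also passed Postn and Cilp, markers of activated matrix fibroblasts, and had no subtype name, while the TAC cluster was named adventitial. Ptgs2 is known to be induced with the immediate-early genes, which dissociation can raise. A list of 10 such genes (Fos, Fosb, Jun, Junb, Egr1, Nr4a1, Atf3, Ier2, Dusp1 and Zfp36) was at 222 in Sham and 371 in TAC fibroblasts, a ratio of 1.68 (1.56 to 1.80), with 10 of 10 genes higher. In endothelial cells the list was at 359 and 371, with 4 of 10 genes higher. The part of dissociation in the fibroblast value was not tested. Cardiomyocytes had 0 Sham and 1 TAC Ptgs2 UMIs, macrophages 5 and 0. At 1000 UMIs per cell, 0.722% of Sham and 0.737% of TAC fibroblasts had a Ptgs2 UMI, and 0 cardiomyocytes did, which allows up to 0.121% and 0.126%. Without thinning the shares were 1.22% and 1.5% of fibroblasts, at medians of 2155.5 and 2268.5 UMIs, and 0 and 0.0418% of cardiomyocytes, at 4505 and 4917.

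**Figure D3:**
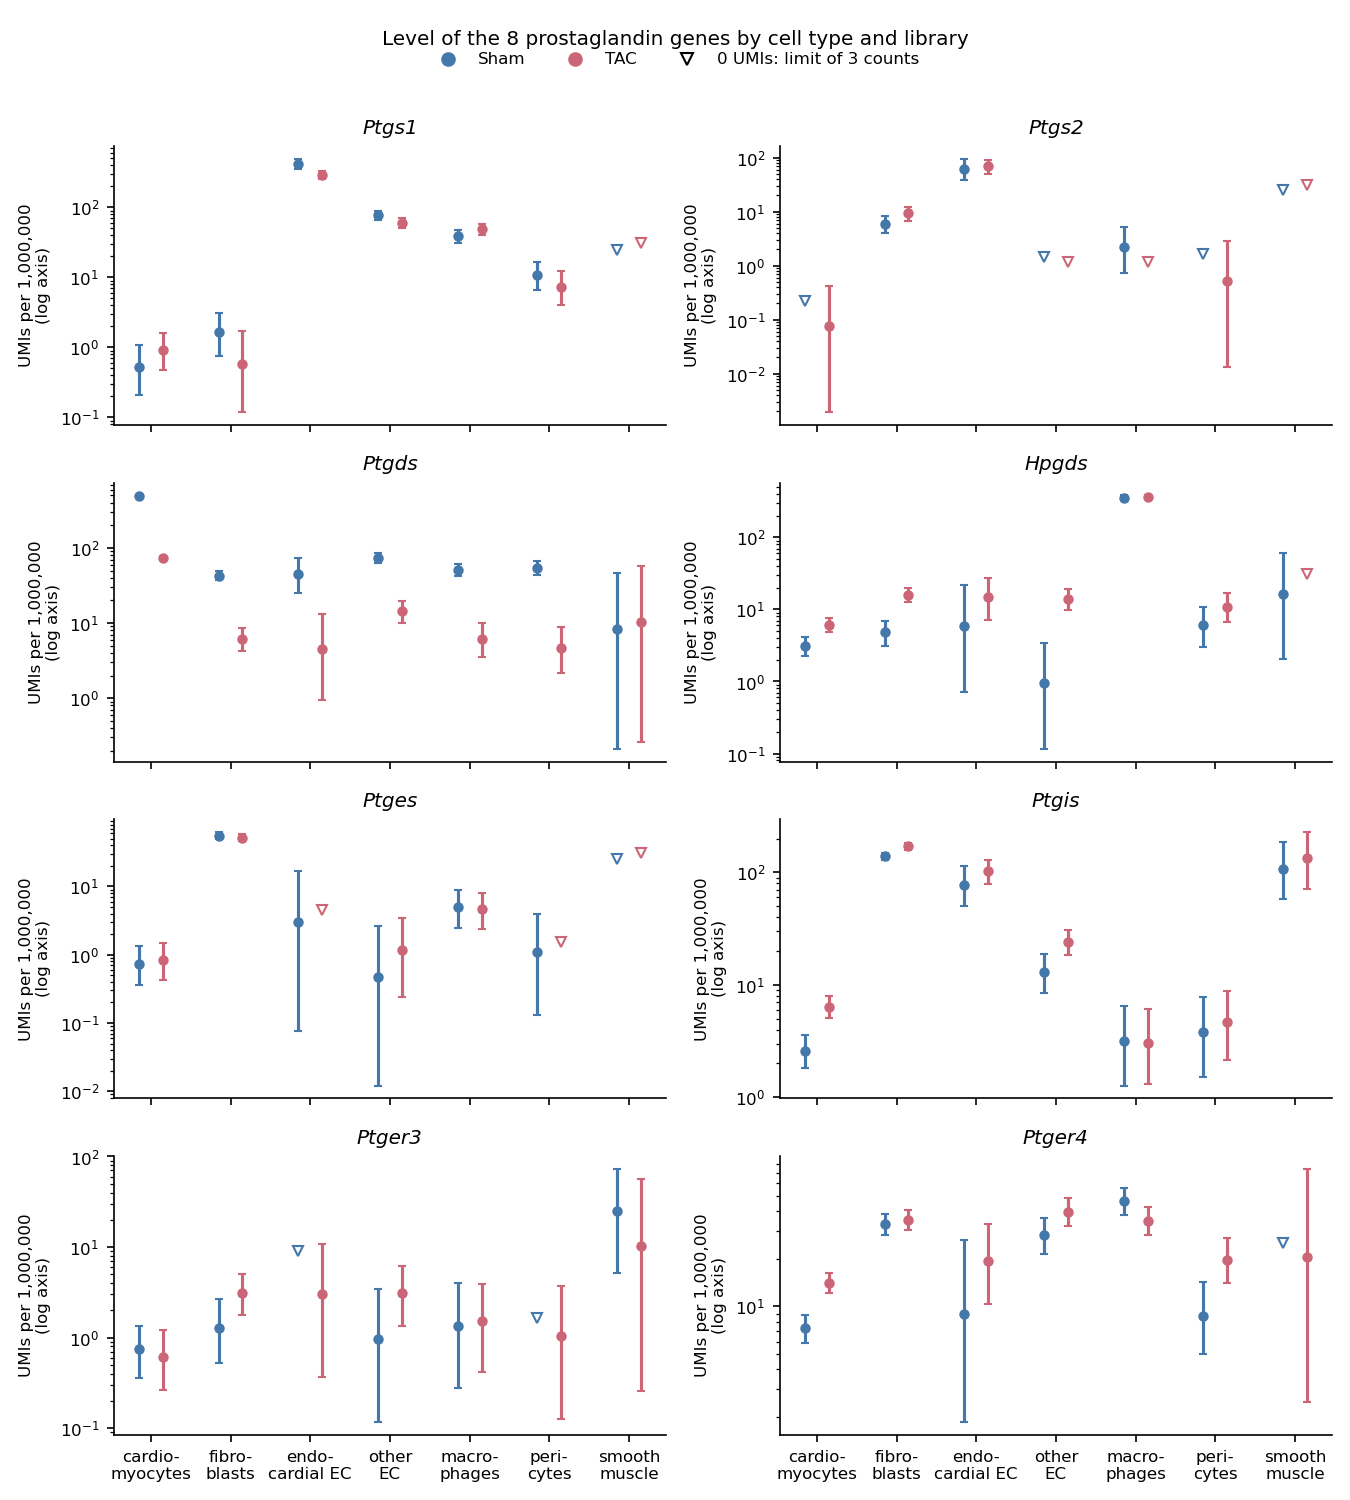
Levels of the 8 genes (UMIs per 1000000 UMIs of the cell type, log axes) in 7 cell groups of the Sham (blue) and TAC (red) libraries, with endocardial cells apart from the other endothelial cells (EC). Bars are exact Poisson 95% intervals, and open triangles mark groups with 0 UMIs at the limit of 3 counts; Ptgds was highest in cardiomyocytes, Hpgds in macrophages and both cyclooxygenases in endocardial cells.

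Hpgds, the hematopoietic prostaglandin D synthase, was a macrophage gene, and its levels there had overlapping intervals in the libraries. Macrophages were at 356 (332 to 382) in Sham, from 789 UMIs, and at 359 (337 to 383) in TAC, from 937 UMIs. The ratio was 1.01 (0.916 to 1.11). Macrophages held 89.1% of the Hpgds UMIs in Sham and 79.7% in TAC. At 1000 UMIs per cell, 27.2% of Sham and 26.7% of TAC macrophages had a Hpgds UMI, against 0.283% and 0.462% of cardiomyocytes, the type taken to lack it. Without thinning the shares were 34.3% and 39.1% of macrophages, at medians of 1315 and 1660.5 UMIs, and 1.47% and 2.88% of cardiomyocytes.

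In endothelial cells, fibroblasts and cardiomyocytes, where its level was far lower than in macrophages, Hpgds was higher in TAC. Endothelial cells had 4 UMIs in Sham and 46 in TAC, levels of 1.65 (0.450 to 4.23) and 14.2 (10.4 to 18.9). Their ratio of 8.60 (3.14 to 32.9) was the highest of the 10086 genes with at least 50 UMIs in endothelial cells. Hpgds only just met that limit of 50 UMIs, and did so through its TAC UMIs, so the rank is a description only. The 46 TAC UMIs were spread over 41 cells. Fibroblasts were at 4.79 (3.13 to 7.02) and 15.8 (12.6 to 19.6), a ratio of 3.30 (2.10 to 5.34). In fibroblasts 48 of 12300 genes had a higher ratio. Cardiomyocytes were at 3.12 (2.25 to 4.21) and 6.18 (4.91 to 7.68), a ratio of 1.98 (1.35 to 2.95), which was 1.07 with cells typed by their own markers. Pericytes were at 5.99 (2.99 to 10.7) and 10.9 (6.75 to 16.7), with overlapping intervals. Smooth muscle cells had 2 Sham and 0 TAC UMIs. The Hpgds level was also higher in TAC in each endothelial subtype with more than 1 Sham UMI, but from few UMIs. Capillary cells had 2 and 24 UMIs, a ratio of 13.0 (3.23 to 113). Endocardial cells had 2 and 10, a ratio of 2.52 whose interval held 1 (0.536 to 23.6). Neither subtype reached 50 UMIs.

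Free RNA from macrophages would also carry their marker genes, so Hpgds was set beside 9 macrophage markers (Adgre1, C1qa, C1qb, C1qc, Csf1r, Mrc1, Cd68, Cd163 and Fcgr1). The list was at 6686 in Sham and 6406 in TAC macrophages. In endothelial cells it was at 75.1 and 87.3, a ratio of 1.16 (0.962 to 1.41), with 6 of 9 markers higher in TAC. In fibroblasts it was at 47.2 and 44.5, a ratio of 0.944 (0.787 to 1.13), with 2 of 9 markers higher. These ratios of the list were below those of Hpgds in the same cells. Hpgds had 53.3 UMIs per 1000 UMIs of the list in Sham macrophages (49.6 to 57.3) and 56.1 in TAC macrophages (52.5 to 59.9). In endothelial cells it had 22.0 (5.92 to 57.2) and 163 (116 to 223), and in fibroblasts 102 (65.1 to 152) and 355 (272 to 459). Of the 9 markers, 0 were at 0 UMIs in any of these cells. Tbxas1, thromboxane synthase, another macrophage gene of the pathway, was also higher in TAC outside macrophages: the ratio was 1.06 (0.990 to 1.15) in macrophages, 2.20 (1.22 to 4.15) in endothelial cells, 1.64 (1.18 to 2.29) in cardiomyocytes and 1.61 (0.958 to 2.75) in fibroblasts. Hpgd, which inactivates prostaglandins and was also highest in macrophages among the large types, was lower in TAC in fibroblasts and cardiomyocytes. In endothelial cells it was near its Sham level. Hpgd was at 13.8 in Sham and 8.09 in TAC fibroblasts, from 75 and 42 UMIs. Cardiomyocytes were at 1.41 and 0.458, from 19 and 6 UMIs, under the limit of 50. Endothelial cells were at 35.5 and 32.7, from 86 and 106 UMIs, and endocardial cells had a higher Hpgd level than endothelial cells as a whole. The part of free RNA or of mixed droplets in these values was not tested.

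**Figure D4:**
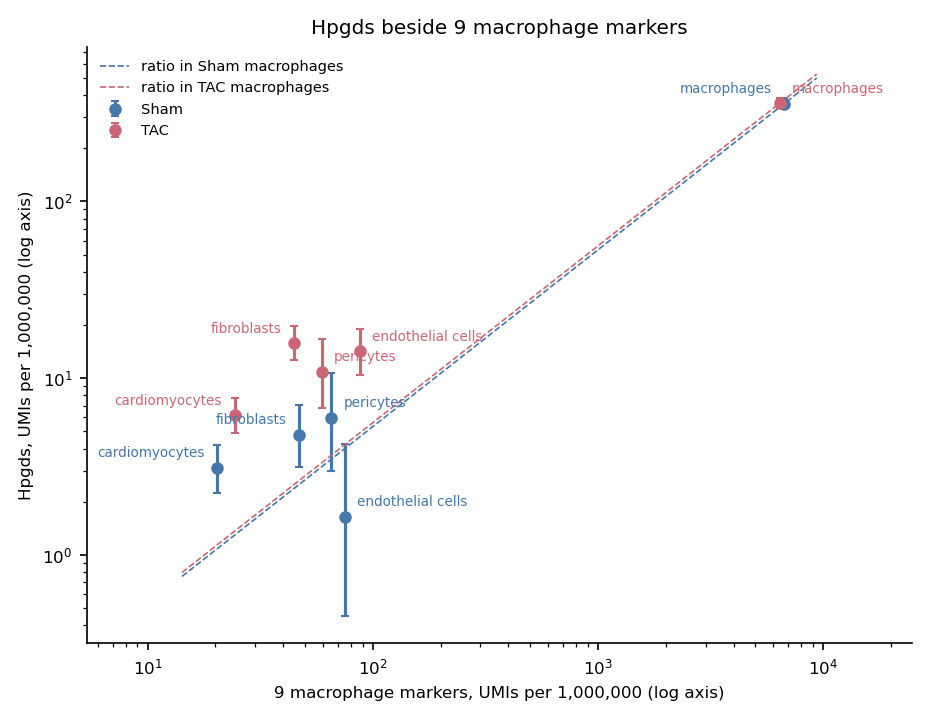
Hpgds level against the summed level of 9 macrophage markers in the 5 large cell types (both in UMIs per 1000000 UMIs, log axes; bars are exact Poisson 95% intervals for Hpgds; blue, Sham; red, TAC). Dashed lines carry the ratio measured in macrophages, 53.3 and 56.1 UMIs per 1000; in endothelial cells the Sham point lies below its line at 1.65 and the TAC point above its line at 14.2.

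Ptges, the inducible prostaglandin E synthase, was a fibroblast gene, with 92.1% of its UMIs in fibroblasts in Sham and 89.6% in TAC. Fibroblasts were at 55.6 (49.5 to 62.3) in Sham and 51.6 (45.6 to 58.2) in TAC, a ratio of 0.928 (0.784 to 1.10). The other large types were at 4.97 or lower. In Sham the fibroblast cluster led by Dpep1 and Bmper was higher, at 68.4 (58.5 to 79.6), than the cluster led by C7 and Hmcn2, at 44.9 (37.6 to 53.3). In TAC the clusters with these genes among, but not at the top of, their leading genes were at 52.6 (44.8 to 61.4) and 50.2 (41.2 to 60.7), with overlapping intervals. At 1000 UMIs per cell, 4.91% of Sham and 3.83% of TAC fibroblasts had a Ptges UMI, against 0.162% and 0.126% of cardiomyocytes. Unthinned, 9.83% and 9.96% of fibroblasts had one, at medians of 2155.5 and 2268.5 UMIs, and 0.398% and 0.460% of cardiomyocytes. The gene overlaps the processed pseudogene Gm13400 on its own strand over 380 bases.

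Ptgis, prostacyclin synthase, was found in fibroblasts, smooth muscle cells, the endocardium and the epicardium. Fibroblasts were at 139 (130 to 150) in Sham, from 756 UMIs, and 170 (159 to 182) in TAC, from 884, a ratio of 1.22 (1.11 to 1.35). The clusters with C7 among their leading genes were higher than the others in both libraries. They were at 156 (142 to 171) against 119 (106 to 133) in Sham and at 217 (198 to 238) against 138 (125 to 151) in TAC. The 10 fibroblast markers, which include collagen genes, had a ratio of 1.33 (1.30 to 1.35) in fibroblasts. At 1000 UMIs per cell, 11.5% of Sham and 12.9% of TAC fibroblasts had a Ptgis UMI, against 0.296% and 0.267% of macrophages. Without thinning the shares were 23.8% and 29.0% of fibroblasts, and 0.495% and 0.594% of macrophages.

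In endothelial cells Ptgis was at 21.9 (16.4 to 28.6) in Sham and 40.1 (33.5 to 47.6) in TAC, a ratio of 1.83 (1.32 to 2.57). Endocardial cells had the higher level, 77.6 (50.7 to 114) and 102 (79.3 to 130), with a ratio of 1.32 whose interval held 1 (0.827 to 2.16). Capillary cells were at 12.8 (8.34 to 18.7) and 27.1 (20.2 to 35.7), a ratio of 2.13 (1.30 to 3.55). Cardiomyocytes were at 2.60 (1.81 to 3.61) and 6.41 (5.11 to 7.94), a ratio of 2.47 (1.65 to 3.78), which was 1.16 with cells typed by their own markers. With no doublets removed the endothelial ratio was 1.37. The 10 fibroblast markers had ratios of 1.33 (1.23 to 1.43) in endothelial cells and 1.38 (1.27 to 1.49) in cardiomyocytes, and their part in the Ptgis values there was not tested. Smooth muscle cells had 13 UMIs in each library, at 108 (57.6 to 185) and 133 (70.9 to 228), but 6 of the 13 were in 1 cell both times. Epicardial or mesothelial cells were at 306 (158 to 535) and 275 (160 to 440). In TAC B cells all 6 Ptgis UMIs were in 1 cell.

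Ptger4, the prostaglandin E2 receptor EP4, which raises cyclic AMP, was the member spread most evenly over the large types. Macrophages were at 46.5 (38.0 to 56.4) in Sham and 34.9 (28.1 to 42.8) in TAC, a ratio of 0.750 (0.559 to 1.0), which was 0.556 with cells typed by their own markers. Fibroblasts were at 33.0 (28.3 to 38.2) and 35.1 (30.2 to 40.5), a ratio of 1.06 (0.860 to 1.31). Endothelial cells were at 25.6 (19.6 to 32.8) and 35.5 (29.3 to 42.6), a ratio of 1.39 (1.01 to 1.92). In the Sham order, macrophages, fibroblasts and endothelial cells had overlapping intervals between neighbours. In TAC the intervals of all 3 types overlapped.

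Ptger4 was lower in pericytes and cardiomyocytes, and higher in TAC in both. Pericytes were at 8.71 (4.98 to 14.2) in Sham and 19.7 (14.0 to 27.1) in TAC, a ratio of 2.27 (1.23 to 4.35) from 16 and 38 UMIs. Cardiomyocytes were at 7.27 (5.90 to 8.86) and 14.0 (12.1 to 16.2), a ratio of 1.93 (1.5 to 2.49). Sham T cells were at 121 (44.2 to 262), from 6 UMIs in 5 cells, and TAC T cells at 38.5 (7.94 to 112). At 1000 UMIs per cell, 3.56% of Sham and 3.02% of TAC macrophages had a Ptger4 UMI, against 0.606% and 1.47% of cardiomyocytes. Without thinning the shares were 5.87% and 5.72% of macrophages, and 3.39% and 6.69% of cardiomyocytes. The protein-coding gene Ttc33 overlaps Ptger4 on the other strand over 11676 bases. Whether the counting used strand is not given in the sources used here, so UMIs of Ttc33 could be counted as Ptger4 or the other way round.

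Ptger3, the receptor EP3, which lowers cyclic AMP, was near the limit of detection. It had 26 UMIs in the Sham cells and 43 in the TAC cells, at most 16 of them in 1 cell type. Fibroblasts were at 1.29 (0.518 to 2.66) in Sham and 3.08 (1.76 to 5.01) in TAC. Endothelial cells had 2 and 10 UMIs, levels of 0.825 and 3.09. Smooth muscle cells had 3 and 1 UMIs in 48 and 43 cells. The intervals of the ratio held 1 in every cell type with UMIs in both libraries, so no difference was detectable at this depth.

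The members' ratios were read against all genes of the same cell type. A gene counted as past the fold when its ratio was at least 1.5 in either direction and it had at least 50 UMIs over both libraries. In cardiomyocytes 4 members had enough UMIs, of which Hpgds, Ptgis and Ptger4 were past it as higher and Ptgds as lower, where 19.5% of 13296 genes were past it. In fibroblasts 6 members had enough UMIs, with Ptgs2 and Hpgds higher and Ptgds lower, beside 14.9% of 12300 genes. In endothelial cells 6 had enough UMIs, with Ptgs2, Hpgds and Ptgis higher and Ptgds lower (2 members past it with cells typed by their own markers), beside 14.8% of 10086 genes. In macrophages 4 had enough UMIs and Ptgds alone was past the fold (2 members with cells typed by their own markers), beside 18.0% of 9526 genes. In pericytes 2 had enough UMIs, with Ptger4 higher and Ptgds lower, beside 13.9% of 8382 genes. Ptger3 had enough UMIs in no large type. The median ratio over all these genes was 0.996 to 1.02 in the 5 types. The members were chosen with these ratios known, so their counts are a description and no evidence about the pathway.

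**Figure D5:**
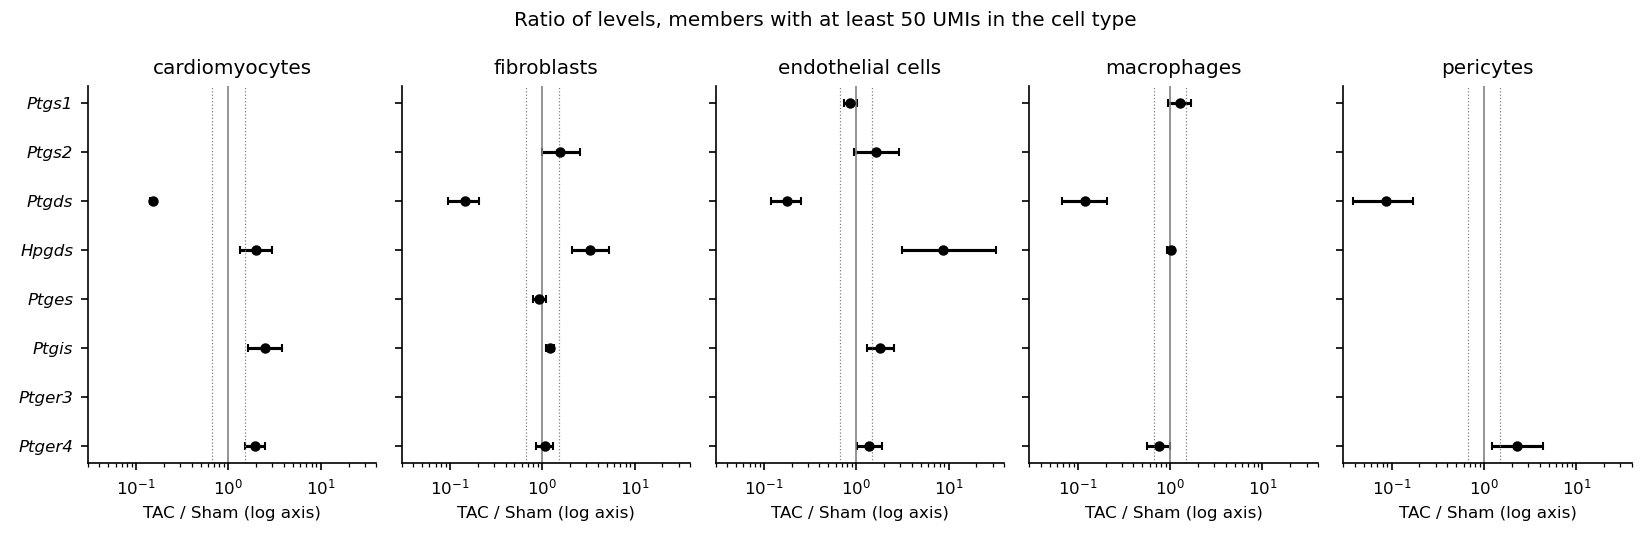
Ratio of TAC to Sham levels (log axis) of the members with at least 50 UMIs over both libraries in each of the 5 large cell types, with exact conditional binomial 95% intervals; the solid line marks 1 and the dotted lines 1.5-fold either way. Ptgds lies at 0.0859 to 0.176 in all 5 types, and Hpgds lies at 8.60 in endothelial cells and 1.01 in macrophages.

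Of 32 other genes of the prostanoid and leukotriene pathways, 15 had enough UMIs in cardiomyocytes, of which 1 was higher and 2 were lower past 1.5-fold, beside 12.8% of all genes higher and 6.75% lower. The higher one was Tbxas1. The lower ones were Pla2g12a, a secreted phospholipase, at 43.2 and 19.3 with a ratio of 0.446 (0.384 to 0.518), and Pla2g6, a calcium-independent phospholipase, at 8.68 and 5.11. In fibroblasts, where 10.6% of all genes were higher and 4.33% lower, 16 had enough UMIs, of which Tbxas1 was higher and Hpgd, the enzyme that inactivates prostaglandins, was lower, at 13.8 and 8.09 with a ratio of 0.586 (0.392 to 0.866). In pericytes, where 7.38% of all genes were higher and 6.49% lower, 7 had enough UMIs, of which 2 were higher: Akr1b3, an aldo-keto reductase known to make prostaglandin F2α, and Ptgr2, a prostaglandin reductase.

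In macrophages 13 of the 32 had enough UMIs, 5 were higher and 0 lower, beside 9.19% of all genes higher and 8.83% lower. Pla2g4a, the cytosolic phospholipase that frees arachidonic acid, was at 81.8 in Sham and 189 in TAC, a ratio of 2.32 (1.95 to 2.76). Of the leukotriene branch, Ltc4s, leukotriene C4 synthase, was at 43.8 and 92.0 (ratio 2.10, 1.65 to 2.69). Alox5ap, the activating protein of the lipoxygenase Alox5, was at 54.7 and 98.2 (1.80, 1.44 to 2.25). Cysltr1, a receptor of cysteinyl leukotrienes, was at 49.7 and 91.6 (1.84, 1.47 to 2.33). Alox5 itself was at 191 and 225, a ratio of 1.18 (1.04 to 1.34), under the fold. Akr1b3 was also higher past 1.5-fold in macrophages, at 9.94 and 23.0, from 22 and 60 UMIs. In endothelial cells, where 8.84% of all genes were higher and 5.92% lower, 14 had enough UMIs, of which Pla2g4a, Tbxas1 and Cysltr1 were higher and Pla2g6 was lower. Endothelial Pla2g4a was mostly endocardial, at 263 in Sham and 340 in TAC endocardial cells, a ratio of 1.29 (1.01 to 1.67) against 1.87 (1.47 to 2.39) over all endothelial cells.

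For each member, the genes of most similar pattern were found by the Pearson correlation of log2(level + 1) over 12 points, the 6 cell types with at least 50 cells in each library, among genes with at least 100 UMIs in each library. The points share 2 libraries and their depths, so these values are a description. Ptgds was most like Srrm1 (r = 0.942), Coro6 (0.904) and Dok7 (0.901). In Sham and TAC cardiomyocytes, Srrm1 was at 436 and 340, Coro6 at 1218 and 527 and Dok7 at 99.9 and 44.1. Hpgds was most like Pik3ap1 (0.969), Ptgis like Kctd15 (0.974), Ptges like Gm12577 (0.968), Ptgs1 like Rasa4 (0.953) and Ptger4 like Vcam1 (0.935). Ptgs2 and Ptger3 had fewer than 100 UMIs in each library, and their nearest genes, Inhba (0.957) and Mrpl20 (0.919), rest on sparse counts.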

How the data were processed

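Single-cell RNA sequencing of mouse heart was analysed for 2 libraries, Sham and TAC, with 1 library per condition. The authors deposited unnormalized UMI counts for each gene in each barcode. They were made with Cell Ranger, 7.1.0 per the submitters' processing notes and the file headers, while the methods name an earlier release. The labels give kit version 3, and the methods an earlier kit. The genome build and the use of strand or introns in counting are not given in the sources used here. GENCODE M21 holds 52081 (94.1%) of the 55357 identifiers. The members and gene lists were chosen with earlier results of these data known.

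The analysis ran in Python 3.11.15. Clustering used scanpy 1.11.5 with igraph 0.11.9 on anndata 0.12.19 objects, intervals came from scipy 1.17.1, tables from pandas 2.3.3 with numpy 2.4.6, and figures from matplotlib 3.10.9. Barcodes under 200 detected genes (1 per library) and Scrublet doublets (462 and 478; expected rate 0.8% per 1000 cells) were removed. Each library was normalized to 10000 UMIs per cell, log transformed and clustered by itself (Leiden, resolution 1, 2000 variable genes, 30 principal components, 15 neighbours, seed 1), without the members, pathway genes and mitochondrial genes. Clusters were named from at least 3 markers of 18 fixed lists, each seen in 10% of cells or more and higher than the mean of the other clusters by 1 or more on the log2 scale, after adding 0.05 to levels; the 10 leading genes could not go against the name, and clusters with 3 cell-cycle genes among them stayed unnamed. The fold over the mean of the other clusters was adopted after the first clustering had been seen. Endothelial subtypes were named from markers in the same way.

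UMIs were summed per type. A count of 0 allows up to 3 counts. Shares of cells have exact Clopper-Pearson 95% intervals and were compared after thinning to 1000 UMIs in 1 random draw. Genes with at least 50 UMIs over both libraries entered the ratios, with 1.5-fold as the size used. Named genes were the members, the listed pathway, cardiomyocyte and immediate-early genes, and the 3 genes of most similar pattern per member. The comparison of Hpgds and Ptgis with macrophage and fibroblast markers, the endothelial subgroups and the genes at the ends of the ratios were added after values were seen. The ratio step was tested on simulated data. Alternatives were other filters, resolutions, joint clustering, typing by each cell's own markers, no doublet removal, levels without mitochondrial genes, other thinning depths and, added after the data were seen, pooled marker folds and leaving out the cell with most UMIs of a member.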

Additional observations from a re-analysis of the deposited data

How the results depend on the processing

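No paired analysis was possible because Sham and TAC were each a single library. Over the 13 alternatives 0 of the ratios of members with at least 50 UMIs and of the Ptgds shares in cardiomyocytes reversed. The Ptgs1 level in endothelial cells was 102 in both libraries with typing by each cell's own markers. Some levels from few UMIs did reverse. Among them, the Ptgs1 level in cardiomyocytes, 0.519 in Sham and 0.916 in TAC, was 6.06 and 4.23 with that typing. The Ptges level in cardiomyocytes, 0.742 and 0.839, reached 6.18 in Sham and at most 3.96 in TAC. That in endothelial cells, 0.825 and 0.926, reached 5.72 and at most 1.13. The order of the libraries did turn with depth for several other shares of cells with a UMI, not all named here. Hpgds in macrophages was at 27.2% in Sham and 26.7% in TAC at 1000 UMIs. It was at 40.5% and 44.3% at 2000 and at 34.3% and 39.1% unthinned. The Ptgs1 share in endothelial cells and the Ptges share in fibroblasts were higher in Sham when thinned and higher in TAC unthinned. Ptgs2 in endothelial cells was at 0.368% and 0.266% at 500 UMIs, but at 0.550% and 1.18% at 1000. Ptger3 in fibroblasts was at 0.144% and 0.0983% at 1000 UMIs, but at 0.155% and 0.467% at 2000. With typing by each cell's own markers, the Ptgds level in cardiomyocytes was 419 in Sham and 66.0 in TAC, the Ptgs2 ratio in endothelial cells 3.00, the Ptger4 ratio in macrophages 0.556, and 2 members were past 1.5-fold in endothelial cells and 2 in macrophages. With no doublets removed, the Ptgds ratio in fibroblasts was 0.0859. The share of cardiomyocytes with a Ptgds UMI was 18.6% in Sham and 3.34% in TAC when thinned to 500 UMIs, 39.8% and 11.4% at 2000, and 56.3% and 20.6% unthinned. Their causes were not tested. Over all comparisons of a main value with an alternative, 189 moved by less than counting error and 13 by more. The Ptgds ratio in cardiomyocytes ran from 0.148 to 0.158, the Hpgds ratio in endothelial cells from 6.69 to 10.7 and that in cardiomyocytes from 1.07 to 2.03. The Ptgis ratio in cardiomyocytes ran from 1.16 to 2.99. Both lowest values came from typing by each cell's own markers, and the Ptgis and Ptgs2 ratios in endothelial cells were 1.37 and 1.30 with no doublets removed. Depth limits Ptger3 and Ptgs2 most, and the small cell types allow only wide intervals.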

Other observations

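Further genes of the pathway lists had the following levels by cell type. Tbxas1, thromboxane synthase, was at 598 in Sham and 637 in TAC macrophages. Hpgd, which inactivates prostaglandins, was at 303 and 286 in macrophages, and in endocardial cells it was at 230 and 140, a ratio of 0.608 (0.445 to 0.833). Ptgfr, the prostaglandin F receptor, was a fibroblast gene, at 37.4 and 31.0. Ptgir, the prostacyclin receptor, was at 14.9 and 16.4 in fibroblasts and at 22.3 and 15.6 in pericytes. Slco2a1, a prostaglandin transporter, was an endothelial gene, at 64.0 and 84.9, a ratio of 1.33 (1.09 to 1.63), with endocardial levels of 119 and 150. Ptgr2, a prostaglandin reductase, was highest in cardiomyocytes, at 115 and 122.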
